A study of Drosophila melanogaster with 6 samples.

Results

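Alpha/beta Kenyon cells were taken from single-cell RNA-seq of fly brains by the genes detected in each cell barcode. A barcode was kept with at least 1000 unique molecular identifiers (UMIs, 1 per captured RNA molecule) and at most 20% of its UMIs in genes of the mitochondrial genome. It was gated as a Kenyon cell with at least 2 of ey, Dop1R2 and prt detected and at least 3 UMIs of Pka-C1, and it was counted as alpha/beta with sNPF and Fas2 detected and no UMI of trio or CG8641. This rule gave 1243 members among 6709 Kenyon-gated cells and 98882 kept barcodes. The 8 genes of the rule chose the members, so their levels in the members are descriptions and were not tested.

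The brains came from Drosophila melanogaster of 2 genotypes, with 3 libraries each. The first carried the tau P251L knock-in (KI), labelled elav-tau P251L KI, which changes 1 amino acid of Tau, a protein that binds microtubules. The second was the control, labelled elav-GAL4(x)/+ with the treatment field wild type. elav is a gene used in neurons throughout the nervous system to drive transgenes, and GAL4 is a yeast activator. Whether the knock-in flies also carried the driver is not given beyond these labels, nor is the age of the flies. Each library pooled 20 male and 20 female brains, which were digested with 0.05% trypsin for 30 minutes, strained at 10 µm and made into 3′ droplet libraries. The pool of brains is the replicate, so the p-values measure the spread between libraries, which may be partly technical.

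Kenyon cells are the intrinsic neurons of the mushroom body, the paired center of olfactory learning in the insect brain. They are born in a fixed order as gamma, then alpha'/beta', then alpha/beta neurons, and their axons form the lobes after which they are named. Alpha/beta neurons are known for their part in the retrieval of long-term memory. Kenyon cells release acetylcholine and short neuropeptide F (from sNPF), receive dopamine, octopamine and serotonin, and use cAMP signalling to change their synapses. Fas2, a homophilic adhesion molecule, marks alpha/beta axons strongly and gamma axons weakly. trio is a marker of gamma and alpha'/beta' neurons.

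Members numbered 376, 330 and 81 in tau P251L KI replicates 1 to 3, against 105, 273 and 78 in control replicates 1 to 3. Their median depth was 3411, 2384.5 and 3250 UMIs in tau P251L KI replicates 1 to 3, against 2424, 3599 and 2622 in control replicates 1 to 3. Depth per member overlapped between the genotypes, at 3015 ± 552 UMIs in tau P251L KI and 2882 ± 629 UMIs in control libraries (SD, n = 3 each, two-sided exact permutation p = 1). Over all barcodes the libraries held 22026339 to 114599045 UMIs, and 1 member barcode was shared between libraries (tau P251L KI replicate 2 and control replicate 2). roX RNA, of the male dosage compensation complex, was detected in 65.4%, 78.8% and 39.5% of members in tau P251L KI replicates 1 to 3, against 55.2%, 76.9% and 55.1% in control replicates 1 to 3. That share varied widely between libraries of the same genotype and overlapped between the genotypes (exact permutation p = 1, n = 3 each).

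tau itself had 257, 332 and 51.9 CPM in the tau P251L KI libraries, against 223, 289 and 237 CPM in the control libraries (replicates 1 to 3). CPM are UMIs of a gene per 1000000 UMIs summed over the members of a library, with library sizes scaled by TMM, a normalization of edgeR. Knock-in replicate 3 was low, with 14 UMIs of tau, and the groups overlapped. The log2 fold change of tau P251L KI over control was -0.16 (SE 0.41) in edgeR's quasi-likelihood test (Benjamini-Hochberg adjusted p = 0.938), and it was 0.23 without knock-in replicate 3. The counts give the level of tau RNA and do not show the substitution.

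The rule required UMIs of sNPF, Fas2 and at least 2 of ey, Dop1R2 and prt, so the levels of these markers of the name are no check of it. In plain CPM, with no TMM scaling, ey, a paired-box factor, averaged 524 ± 75.8 in alpha/beta members and 29.8 ± 4.88 in cells outside the gate (SD, n = 6 libraries). prt, a vesicular transporter, averaged 503 ± 115.2 CPM in alpha/beta members and 6.26 ± 1.23 CPM in cells outside the gate, and Dop1R2, a dopamine receptor, 755 ± 151 and 62.6 ± 7.69 CPM in the same order. sNPF averaged 2615 ± 491 CPM in alpha/beta members and 515 ± 48.2 CPM outside the gate, and Fas2 1018 ± 178 and 205 ± 35.4 CPM, with 749 ± 94.9 CPM in gamma-like cells. Of ey, Dop1R2 and prt, 681 members (54.8%) held exactly 2 and 562 held all 3, with ey in 82.5% and prt in 72.6% of members. The median member held 7 UMIs of sNPF, 3 of Fas2 and 13 of Pka-C1, the catalytic subunit of protein kinase A. At the edge of the rule, 314 members held exactly 1 UMI of Fas2, and 236 cells met every condition but the Fas2 one. A further 909 cells met every condition except that they held exactly 1 UMI of trio.

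The absence of trio, which alone separates alpha/beta members from gamma-like cells, followed sequencing depth. Gamma-like here means the same gate with trio detected, and 2451 cells met it. Among cells with sNPF and Fas2 and without CG8641, 66.6% had no trio UMI at 1000 to under 2000 UMIs per cell, 50.2% at 2000 to under 3000, 38.9% at 3000 to under 4000, 22.3% at 4000 to under 6000 and 8.21% at 6000 or more. Gamma-like cells were the deeper ones, with a median of 4965, 3278 and 5361 UMIs in tau P251L KI replicates 1 to 3, against 3102, 5075 and 4259 in control replicates 1 to 3. The Kenyon-gated cells were therefore also clustered without the 8 genes of the rule, and the 11 clusters were grouped by whether crb or Imp was among the 10 genes of largest fold in them. The 3 crb clusters so defined held 869 members (69.9%), against 484 gamma-like cells (19.7%) and 7 alpha'/beta'-like cells (0.867%). crb was the first gene of 1 of them, while Lgr1 and rn led the others. The 2 Imp clusters held 268 members (21.6%), against 1522 gamma-like cells (62.1%), and CG13055 and Lgr3 led them, with Imp at rank 10 and 7. The other clusters held 106 members (8.53%), against 445 gamma-like cells (18.2%). Among them, the cluster led by CG11835 held 61 members and 191 gamma-like cells. The cluster led by CG12239, with Ms at rank 3, held 13 members and 118 gamma-like cells. The cluster led by CG9686 and MtnA held 19 members and 73 gamma-like cells. The cluster led by CG14274, Eaat1 and CG2016, with orb at rank 7, held 3 members and 36 gamma-like cells. The cluster led by Yp3, Yp2 and Yp1 held 10 members and 26 gamma-like cells. At a finer resolution, clusters with crb among their 10 leading genes held 67.3% of members.

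The members thus fell into clusters of more than 1 kind by genes that the rule did not use. The following are sums over libraries in plain CPM, as a description with no test. Members in crb clusters had 565 CPM of crb, 24823 of pros, 270 of mamo and 104.2 of Imp. Members in Imp clusters had 9.99 CPM of crb, 4083 of pros, 8476 of mamo and 1434 of Imp. Members in the other clusters had 26.9 CPM of crb, 3797 of pros, 3517 of mamo and 1167 of Imp. Imp encodes an RNA-binding protein of early-born neurons. Since the Imp clusters held most gamma-like cells, the cluster of these 268 members does not bear out the alpha/beta name. Members in the other clusters likewise had less crb and pros, and more mamo and Imp, than members in crb clusters. By these 4 genes the name is not borne out for them either. The share in crb clusters was 73.1%, 57.0% and 81.5% in tau P251L KI replicates 1 to 3, against 63.8%, 77.3% and 79.5% in control replicates 1 to 3. It did not rise with depth, at 78.5% of members under 2000 UMIs and 70.6% of those with 6000 or more.

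**Figure D1:**
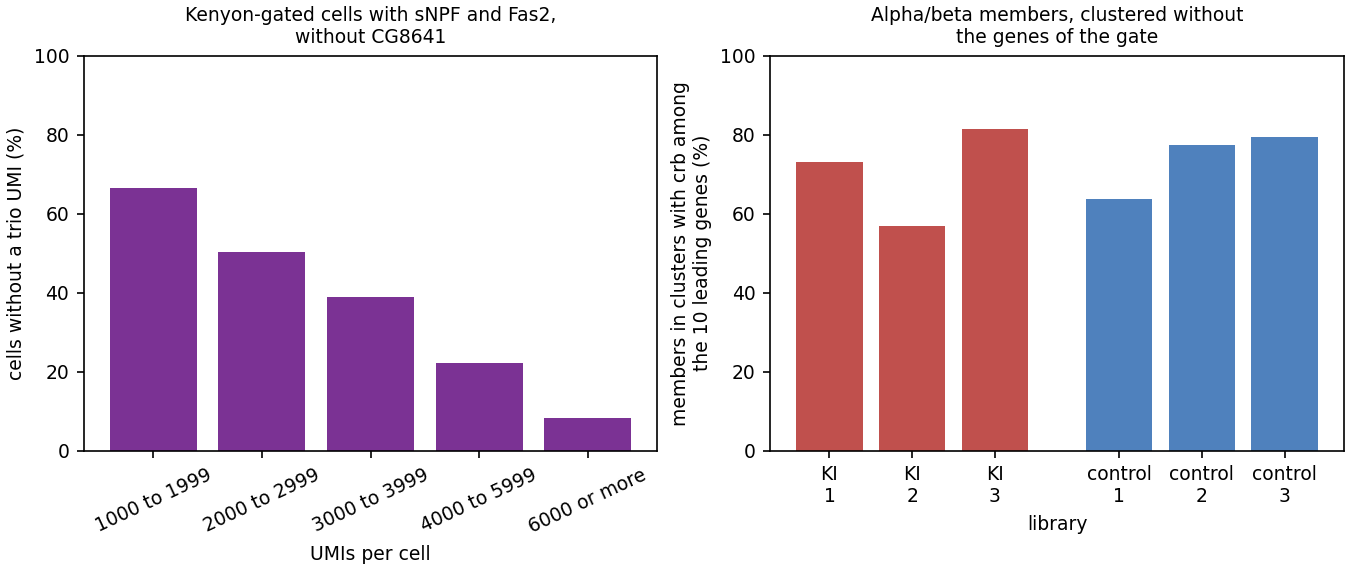
Left, the percentage of Kenyon-gated cells with sNPF and Fas2 UMIs and no CG8641 UMI that had no trio UMI, by UMIs per cell; it was 66.6% in the shallowest bin and 8.21% in the deepest. Right, the percentage of alpha/beta members of each library that lay in clusters with crb among their 10 leading genes when cells were clustered without the genes of the rule, between 57.0% and 81.5%.

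Alpha/beta members made up 18%, 17.8% and 14.4% of Kenyon-gated cells in tau P251L KI replicates 1 to 3, against 22.4%, 19.4% and 23.1% in control replicates 1 to 3. Every tau P251L KI library lay below every control library, with means of 16.8 ± 2.03% in tau P251L KI and 21.7 ± 1.98% in control libraries (SD, n = 3 each). The difference of -4.91 percentage points had a two-sided exact permutation p of 0.1, the smallest that 3 libraries against 3 can give, and an adjusted p of 0.4 over the 4 per-library measures tested. When the gate was applied after thinning every barcode to 1000 UMIs, the means were 25% in tau P251L KI and 30.0% in control libraries and the groups overlapped (exact permutation p = 0.3, n = 3 each). With a minimum of 2000 UMIs per barcode they were 14.9% in tau P251L KI and 19.2% in control libraries, without overlap (exact permutation p = 0.1, n = 3 each). Of the genes of the rule, trio over all Kenyon-gated cells was 517 ± 67.9 CPM in tau P251L KI and 493 ± 88.5 CPM in control libraries, as a description. Fas2 was 564 ± 111 CPM in tau P251L KI and 566 ± 124 CPM in control libraries. Of all kept barcodes, members were 1.4%, 1.09% and 1.13% in tau P251L KI replicates 1 to 3, against 1.96%, 1.15% and 1.42% in control replicates 1 to 3. There the genotypes overlapped (exact permutation p = 0.2, n = 3 each). Each tau P251L KI library lay below the control library of the same number, a pairing that this test did not use.

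Against gamma-like cells of the same libraries, alpha/beta members had more RNA of the polarity gene crb, the transcription factors pros and Eip93F and the receptor 5-HT1A. They had less RNA of the factors mamo, Imp and ab. UMIs were summed per library and type and fitted with the library as a block. Levels of the 6 libraries are given below as the lowest, the median and the highest, or as mean ± SD, in TMM-scaled CPM. Of 5272 features tested, 689 were called at an adjusted p under 0.05 (13.1%), with 301 higher (5.71%) and 388 lower (7.36%) in alpha/beta members. Since trio detection followed depth, the gates were also applied to barcodes thinned to 1000 UMIs, which gave 548 alpha/beta and 231 gamma-like cells. Of those 548, 264 were members and 222 were gamma-like before thinning. That comparison called 45 of 2299 features, 44 of them also called without thinning. Of the 55 genes followed through every setting of this comparison that it could test, 16 kept their call, 36 kept only their sign and 3 changed sign. The types also differed in their mix of clusters, as given above, and the following levels lay closer together within 1 kind of cluster. Within crb clusters, members and gamma-like cells had 565 and 469 CPM of crb, 24823 and 22270 CPM of pros, and 887.9 and 810 CPM of 5-HT1A, in that order. Within Imp clusters, members and gamma-like cells had 8476 and 8331 CPM of mamo, in that order. These genes were not left out of the clustering, and crb defined its clusters, so closeness within a kind of cluster follows in part from the grouping. The values are sums over libraries with no test, and the part of the cluster mix in the differences below was not tested.

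Among genes with a mean of at least 50 CPM in the higher type, Lgr1, crb, SP1173, lbm, CG43759, bt, DIP-kappa and Lmpt had the largest called increases. crb (FBgn0259685, chromosome arm 3R), which encodes the apical polarity protein Crumbs, had 219.6, 422 and 710 CPM in alpha/beta members, against 85.3, 93.2 and 117 CPM in gamma-like cells. Every library was higher in alpha/beta members, and the lowest alpha/beta library stood above the highest gamma-like one, with a log2 fold change of 2.13 (SE 0.14, edgeR adjusted p = 2.12e-09). SP1173 had 80.2, 165 and 402 CPM in alpha/beta members, against 26.3, 34.6 and 69.7 CPM in gamma-like cells, a log2 fold change of 2.13 (SE 0.11). Lgr1, a leucine-rich repeat receptor of the glycoprotein hormone type, averaged 112 ± 55.9 CPM in alpha/beta members against 21.2 ± 15.4 CPM in gamma-like cells (SD, n = 6 libraries each). DIP-kappa, an immunoglobulin protein that pairs with Dpr partners at the cell surface, averaged 317 ± 79.9 CPM in alpha/beta members against 88.4 ± 16 CPM in gamma-like cells. CG43759 averaged 383 ± 121 CPM in alpha/beta members against 102 ± 19.7 CPM in gamma-like cells. The tetraspanin gene lbm had log2 fold change 1.84 (SE 0.17), the titin-family gene bt 1.77 (SE 0.28) and the LIM-domain gene Lmpt 1.72 (SE 0.14). With the gates on thinned barcodes, crb (1.47), SP1173 (1.75), CG43759 (1.75) and DIP-kappa (1.17) were still called on the log2 scale.

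The factors that mark birth order and identity differed in both directions. Of 24 such genes, 23 passed the filter on low counts, 6 were called higher and 7 lower. Over all features, 5.71% were called higher and 7.36% lower. pros, a homeodomain factor on chromosome arm 3R, had 13900, 18632 and 28921 CPM in alpha/beta members, against 4931, 7529 and 9411 CPM in gamma-like cells, a log2 fold change of 1.36 (SE 0.11) with no overlap between the types. Eip93F, an ecdysone-induced factor, averaged 2678 ± 615 CPM in alpha/beta members against 1229 ± 79.7 CPM in gamma-like cells. dac, a nuclear factor of mushroom body neurons, averaged 868 ± 149 CPM in alpha/beta members against 499.6 ± 75.9 CPM in gamma-like cells. In the other direction, mamo, a BTB zinc-finger factor on chromosome X, had 1459, 2492 and 4029.7 CPM in alpha/beta members, against 5193, 6136 and 7764 CPM in gamma-like cells, a log2 fold change of -1.34 (SE 0.11). Neither gene's libraries overlapped between the types. Imp was also lower, at 390.1 to 733 CPM in alpha/beta members against 1064 to 1574 CPM in gamma-like cells, and so was ab, another BTB zinc-finger factor, at 228 to 458 CPM in alpha/beta members against 564 to 897 CPM in gamma-like cells. These genes were all also called with the gates on thinned barcodes, with smaller changes: 0.85 for pros, 0.60 for Eip93F, 0.54 for dac, -0.38 for mamo, -0.41 for Imp and -0.34 for ab on the log2 scale.

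**Figure D2:**
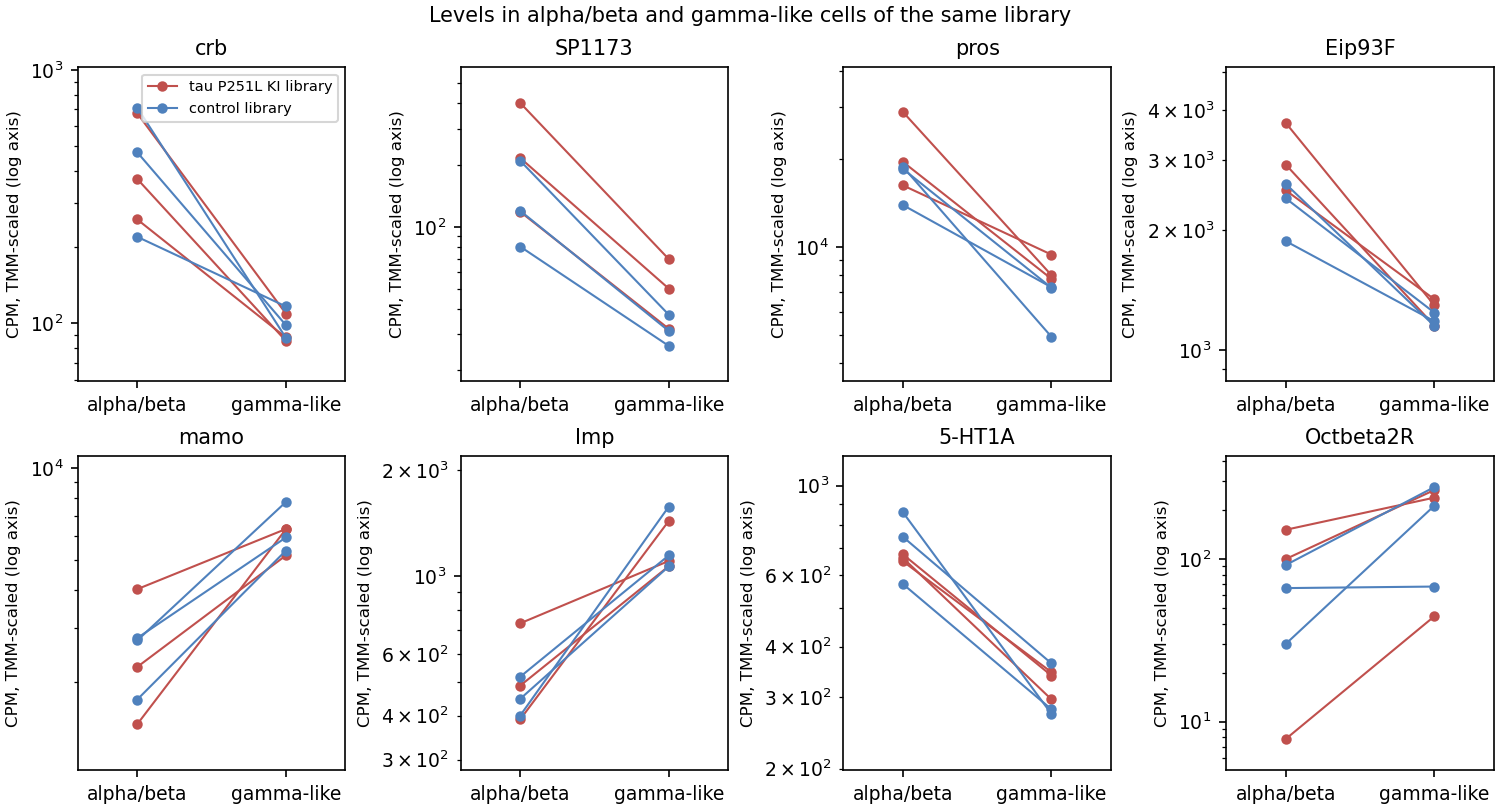
TMM-scaled CPM on a log axis of 8 genes in alpha/beta members (left) and gamma-like cells (right); each line joins the types of 1 library, red for tau P251L KI and blue for control. crb, SP1173, pros, Eip93F and 5-HT1A were higher in alpha/beta members in all 6 libraries, and mamo, Imp and Octbeta2R were lower in all 6.

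Receptors for monoamines, through which reward and punishment signals reach Kenyon cells, separated the types gene by gene. Of 15 receptor genes, 14 passed the filter, 13 of them in the members alone, so no count of lower calls is given. 4 were called higher, where 5.71% of all features were. The serotonin receptor gene 5-HT1A, on chromosome arm 2R, had 572, 670 and 860.1 CPM in alpha/beta members, against 273, 318 and 364 CPM in gamma-like cells, with no overlap and a log2 fold change of 1.09 (SE 0.075). Octbeta3R, an octopamine receptor, averaged 243 ± 101 CPM in alpha/beta members against 89.4 ± 9.30 CPM in gamma-like cells. Oamb, another octopamine receptor, averaged 281 ± 49.6 CPM in alpha/beta members against 153 ± 15.9 CPM in gamma-like cells. Octbeta1R averaged 805 ± 124 CPM in alpha/beta members against 547 ± 45.9 CPM in gamma-like cells. Their relative Octbeta2R went the other way, at 7.80, 79.0 and 151 CPM in alpha/beta members, against 44.4, 226 and 277 CPM in gamma-like cells. It was lower in alpha/beta members in all 6 libraries, although the ranges overlapped (log2 fold change -1.26, SE 0.15). Within Imp clusters Octbeta2R was 111 CPM in members and 100.3 CPM in gamma-like cells, and 1746 of its 2777 UMIs in gamma-like cells came from the 445 in the other clusters, at 628 CPM. Octbeta3R within crb clusters was 276 CPM in members and 294 CPM in gamma-like cells. Octalpha2R (log2 fold change -0.64, SE 0.09) and 5-HT1B (-0.77, SE 0.12) were also lower. With the gates on thinned barcodes, 5-HT1A, Octbeta1R and 5-HT1B were called, and Octbeta3R, Oamb, Octbeta2R and Octalpha2R kept their sign without being called, at 0.53, 0.18, -0.025 and -0.12 on the log2 scale.

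Of 21 genes of cAMP signalling and memory, 19 passed the filter, with 2 called higher and 4 lower, where 5.71% of all features were called higher and 7.36% lower. Appl, the fly amyloid precursor protein-like gene, averaged 4502 ± 786 CPM in alpha/beta members against 3480 ± 440.3 CPM in gamma-like cells. CrebA, a transcription factor of the CREB family, averaged 129 ± 62.2 CPM in alpha/beta members against 61.6 ± 12 CPM in gamma-like cells. dnc, the cAMP phosphodiesterase of the dunce learning mutant, averaged 2347 ± 216 CPM in alpha/beta members against 3092 ± 554 CPM in gamma-like cells. Pka-C3, a catalytic subunit of protein kinase A, had 109, 179 and 335 CPM in alpha/beta members, against 357, 478 and 598 CPM in gamma-like cells, a log2 fold change of -1.16 (SE 0.12). All alpha/beta libraries lay below all gamma-like ones. Within crb clusters Pka-C3 was 35.2 CPM in members and 80.3 CPM in gamma-like cells, and within Imp clusters 556 CPM in members and 586 CPM in gamma-like cells. The regulatory subunit gene Pka-R1 was lower at 789.5 CPM in alpha/beta against 951 in gamma-like cells, a log2 fold change of -0.25 (SE 0.06). On thinned barcodes, Pka-C3 (-0.26, edgeR adjusted p = 0.286), dnc (-0.22), Pka-R1 (-0.19) and Appl (0.15) kept their sign and lost their call. Pka-R1 also lost it within either genotype alone, and CrebA within tau P251L KI libraries alone (0.89, edgeR adjusted p = 0.0555).

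Transmitter receptors and channels moved in both directions. For each count that follows, the shares over all features were 5.71% called higher and 7.36% called lower. Of 11 acetylcholine receptor genes that passed the filter, 1 was called higher and 4 lower. nAChRalpha7, a nicotinic subunit, averaged 261 ± 107 CPM in alpha/beta members against 520.3 ± 109 CPM in gamma-like cells, and nAChRalpha6 averaged 1985 ± 246 CPM in alpha/beta members against 2610 ± 313 CPM in gamma-like cells. The muscarinic receptor gene mAChR-B was the 1 called higher (log2 fold change 0.66, SE 0.10), and its sign turned to -0.086 with the gates on thinned barcodes. Of 11 GABA and glutamate receptor genes, 3 were called higher, among them the GABA-gated chloride channel Rdl at 5034 CPM in alpha/beta against 3545 in gamma-like cells and the glutamate-gated chloride channel GluClalpha at 794 CPM in alpha/beta against 566 in gamma-like cells. mGluR, the metabotropic glutamate receptor, was lower at 170.2 CPM in alpha/beta against 379 in gamma-like cells (log2 fold change -1.08, SE 0.11). Of 16 potassium channel genes, 5 were called higher and 3 lower. Task6, a leak channel, averaged 497 ± 112 CPM in alpha/beta members against 242 ± 25.6 CPM in gamma-like cells, and slo, the calcium-activated channel of large conductance, averaged 2998 ± 618 CPM in alpha/beta members against 2194 ± 181 CPM in gamma-like cells. Elk had a log2 fold change of 0.69 (SE 0.093), while qvr, a regulator of Shaker channels, had -0.34 (SE 0.065). The sodium channel para (0.40, SE 0.051) and the T-type calcium channel Ca-alpha1T (0.68, SE 0.14) were among 3 of 12 sodium and calcium channel genes called higher, with 0 called lower. Once the gates were set on thinned barcodes, only Task6 and Ca-alpha1T of the genes named in this group were still called, and Ca-alpha1T lost its call in tau P251L KI libraries alone (0.53, edgeR adjusted p = 0.1). The log2 fold changes on thinned barcodes were -0.34 for nAChRalpha7, -0.10 for nAChRalpha6, 0.14 for Rdl, 0.23 for GluClalpha, -0.32 for mGluR (edgeR adjusted p = 0.176), 0.15 for slo, 0.46 for Elk, -0.020 for qvr and 0.17 for para.

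Of 32 axon guidance and adhesion genes, 31 passed the filter, 28 of them in the members alone, so no count of lower calls is given. 2 were called higher. Fas1, a homophilic adhesion gene, averaged 1019 CPM in alpha/beta against 797 in gamma-like cells, Sema1a, a transmembrane semaphorin, 587 CPM in alpha/beta against 859 in gamma-like cells, and kek1, of the Kekkon family, 738 CPM in alpha/beta against 1216 in gamma-like cells. Among neuropeptide and receptor genes, Dh44-R1, a diuretic hormone receptor, was higher at 39.6 CPM in alpha/beta against 12.6 in gamma-like cells. The peptide gene Tk was lower at 21.4 CPM in alpha/beta against 56.6 in gamma-like cells, and the relaxin-type receptor gene Lgr3 at 30.2 CPM in alpha/beta against 76.0 in gamma-like cells. Of genes of vesicle release, 3 of 19 were called higher, including the active zone genes brp (0.35, SE 0.054) and Rim (0.36, SE 0.057), and cpx (-0.20, SE 0.052) was lower. futsch (0.26, SE 0.052) and shot (0.42, SE 0.068), which link microtubules to other structures, were the 2 of 17 tau and microtubule genes called, both higher, a share below the 13.1% of all features. Of 18 tau kinase and phosphatase genes, the calcineurin subunit CanA-14F (0.19, SE 0.059) was called higher, and sgg, the GSK-3 kinase (-0.30, SE 0.063), was among 3 called lower. Over all features, 5.71% were called higher and 7.36% lower. CanA-14F kept its call in only 2 of 13 alternative settings and was not called in DESeq2 (DESeq2 adjusted p = 0.0642). On thinned barcodes kek1 was still called, while Fas1 (0.068), Sema1a (-0.089), Lgr3 (-0.16), brp (0.099), Rim (0.083), cpx (-0.098), futsch (0.18), shot (0.28), CanA-14F (0.12) and sgg (-0.089) kept their sign and lost their call. Dh44-R1 lost its call in tau P251L KI libraries alone (0.87, edgeR adjusted p = 0.318).

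Some differences from gamma-like cells moved with markers of other cells or with depth. Eaat1, a glial glutamate transporter, was lower in alpha/beta members at 37.7 CPM in alpha/beta against 110.2 in gamma-like cells, as were the transmitter genes VGlut of glutamatergic neurons (60.7 CPM in alpha/beta against 127 in gamma-like cells), Gad1 of GABAergic neurons (80.9 CPM in alpha/beta against 134 in gamma-like cells) and Ddc of monoaminergic neurons (539 CPM in alpha/beta against 752 in gamma-like cells). The summed level of the 6 glia markers was 126 to 608 CPM over the libraries in alpha/beta members and 135 to 573 CPM in gamma-like cells, with 2 of 5 tested markers called higher and 1 lower. Yp3, a yolk protein gene of the fat body, was higher at 348 CPM in alpha/beta against 217 in gamma-like cells, as were 2 others of the 4 fat body markers tested, and their sum was 7.44 to 2008 CPM in alpha/beta members and 3.49 to 1061 CPM in gamma-like cells. Over all features, 5.71% were called higher and 7.36% lower. Ribosomal protein genes were called higher in 16 of 82 cases and lower in 0, with a median of 0.073. All 13 mitochondrially encoded genes had positive log2 fold changes, 10 of them called, with a list median of 0.30 against -0.009 for all features. mt:CoI, a cytochrome oxidase subunit, averaged 9780.3 ± 3488 CPM in alpha/beta members against 7969 ± 2597 CPM in gamma-like cells. The part of free RNA in these differences was not tested. The largest called decreases also held GstD11, orb, mbl and CG2016, with log2 fold changes of -1.45, -1.38, -1.31 and -2.08, and CG2016 turned to 0.84 with the gates on thinned barcodes. Eaat1, orb and CG2016 were leading genes of the cluster that held 3 members and 36 gamma-like cells. GstD11 was a leading gene of both Imp clusters. The part of these clusters in the decreases was not tested. On thinned barcodes Ddc (-0.18), Yp3 (0.28), mt:CoI (0.18), GstD11 (-0.42) and mbl (-0.45) lost their call, and Gad1 lost its call in tau P251L KI libraries alone (-0.51, edgeR adjusted p = 0.199). The early stress gene puc (-0.61, SE 0.08), a phosphatase of the JNK pathway, turned to 0.043 there.

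Alpha'/beta'-like cells were the Kenyon-gated cells with trio and CG8641 and without Fas2, 807 in all. Against them, alpha/beta members had more RNA of crb, pros, Hr38, Oamb, 5-HT1A and KCNQ, and less of mamo, chinmo, Pka-C3 and the nuclear genes of the respiratory chain. Of 4299 features, 1119 were called in edgeR (26.0%), 549 higher (12.8%) and 570 lower (13.3%). A single cluster, led by DAT, held 80.5% of the alpha'/beta'-like cells and 0 members. With the gates on thinned barcodes 676 features were called, 554 of them also called without thinning. Of the genes named below, 5-HT1B (-0.22), dnc (-0.029), shot (0.23) and sgg (-0.15) lost their call there, and Con and SK within 1 genotype alone.

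The largest called increases were in CG11835, lbm, Lgr1, sals, SP1173, crb, CG43759 and KCNQ. KCNQ, a voltage-gated potassium channel of the M-current type, had 87.4, 109 and 150 CPM in alpha/beta members, against 4.55, 8.55 and 15.2 CPM in alpha'/beta'-like cells, a log2 fold change of 3.64 (SE 0.22, edgeR adjusted p = 9.36e-09). crb had 229, 437 and 734 CPM in alpha/beta members, against 11.4, 22.7 and 94.0 CPM in alpha'/beta'-like cells, a log2 fold change of 4.13 (SE 0.20). For both genes every alpha/beta library stood above every alpha'/beta'-like one. The other increases, on the log2 scale, were 5.45 for CG11835, 5.19 for lbm, 4.85 for Lgr1, 4.29 for the actin-filament gene sals, 4.22 for SP1173 and 3.64 for CG43759. CG11835 was a leading gene only of the clusters that held 61 and 57 members.

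DAT, with 6 UMIs in all members, and CG1368 entered this comparison through the alpha'/beta'-like cells alone, and they are given as levels. For Lac and dnr1, also low in the members, this may hold as well. DAT, the dopamine transporter, had 0, 0.501 and 2.50 CPM in alpha/beta members, against 157, 266 and 431 CPM in alpha'/beta'-like cells, with no overlap. CG1368 had 0 UMIs in alpha/beta members and 509 in alpha'/beta'-like cells, which is at least 192-fold lower when 3 counts over all libraries are taken as the limit. The adhesion gene Lac, of the Lachesin immunoglobulin type, averaged 6.46 CPM in alpha/beta against 122 in alpha'/beta'-like cells, the leucine-rich repeat gene Fili 16.8 CPM in alpha/beta against 244 in alpha'/beta'-like cells, the isocitrate dehydrogenase gene Idh 28.0 CPM in alpha/beta against 187 in alpha'/beta'-like cells, dnr1 8.53 CPM in alpha/beta against 82.5 in alpha'/beta'-like cells and asRNA:CR44429 56.0 CPM in alpha/beta against 779.8 in alpha'/beta'-like cells. asRNA:CR44429 is annotated as an antisense RNA, and the sources used here do not say whether reads were counted by strand.

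pros was 14515 to 29327 CPM in alpha/beta members against 1487 to 4246 CPM in alpha'/beta'-like cells, a log2 fold change of 2.83 (SE 0.20), and mamo was 1479.6 to 4002 CPM in alpha/beta members against 11900 to 16294 CPM in alpha'/beta'-like cells, a log2 fold change of -2.51 (SE 0.15). Hr38, an activity-induced nuclear receptor, averaged 3327 ± 739 CPM in alpha/beta members against 1188 ± 298 CPM in alpha'/beta'-like cells, and Eip93F averaged 2742 CPM in alpha/beta against 983 in alpha'/beta'-like cells. chinmo, a temporal factor, was lower at 706 CPM in alpha/beta against 1579 in alpha'/beta'-like cells. Of 23 identity factors that passed the filter, 9 were called higher and 4 lower, where 12.8% of all features were called higher and 13.3% lower.

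Of 12 monoamine receptor genes, 6 were called higher and 1 lower, where 12.8% of all features were called higher and 13.3% lower. Oamb had 229, 275 and 352 CPM in alpha/beta members, against 25.9, 39.5 and 69.5 CPM in alpha'/beta'-like cells, and 5-HT1A had 597, 685 and 889 CPM in alpha/beta members, against 87.5, 137 and 182 CPM in alpha'/beta'-like cells. Neither gene's ranges overlapped, and the log2 fold changes were 2.67 (SE 0.19) and 2.30 (SE 0.13) in that order. Octbeta1R averaged 825 CPM in alpha/beta against 363 in alpha'/beta'-like cells, and 5-HT1B was the 1 lower receptor at 84.2 CPM in alpha/beta against 154 in alpha'/beta'-like cells. Of 19 cAMP and memory genes, 8 were called higher and 4 lower, beside the same shares of all features. Pka-R2, the type II regulatory subunit of protein kinase A, averaged 4211 ± 631 CPM in alpha/beta members against 1798 ± 419.5 CPM in alpha'/beta'-like cells, and rad, the radish memory gene, 2473 ± 325 CPM in alpha/beta members against 1551 ± 149.7 CPM in alpha'/beta'-like cells. Appl averaged 4608 CPM in alpha/beta against 3161 in alpha'/beta'-like cells and dnc 2405 CPM in alpha/beta against 2995 in alpha'/beta'-like cells. Pka-C3 was lower, with 111, 186 and 333 CPM in alpha/beta members, against 816, 927 and 1312 CPM in alpha'/beta'-like cells. Alpha/beta members thus had less Pka-C3 and more Pka-R2 than alpha'/beta'-like cells, without overlap between libraries.

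The acetylcholinesterase gene Ace averaged 172 ± 77.7 CPM in alpha/beta members against 562 ± 133 CPM in alpha'/beta'-like cells. Receptor and channel genes again differed in both directions. nAChRalpha6 (2032 CPM in alpha/beta against 4426 in alpha'/beta'-like cells) and nAChRalpha7 (267 CPM in alpha/beta against 743 in alpha'/beta'-like cells) were lower and mAChR-B (146 CPM in alpha/beta against 44.4 in alpha'/beta'-like cells) higher. GluClalpha averaged 812 CPM in alpha/beta against 377 in alpha'/beta'-like cells and mGluR 174 CPM in alpha/beta against 425 in alpha'/beta'-like cells. slo averaged 3072 ± 619 CPM in alpha/beta members against 1223 ± 232 CPM in alpha'/beta'-like cells, Task6 509.8 CPM in alpha/beta against 170 in alpha'/beta'-like cells and Elk 302 CPM in alpha/beta against 128 in alpha'/beta'-like cells, while SK, a calcium-activated channel of small conductance, was lower at 368 CPM in alpha/beta against 607 in alpha'/beta'-like cells. Ca-alpha1T was higher at 616 CPM in alpha/beta against 265 in alpha'/beta'-like cells and Ih, the hyperpolarization-activated channel, lower at 919.5 CPM in alpha/beta against 1244 in alpha'/beta'-like cells. Ten-a, a teneurin, averaged 2113 CPM in alpha/beta against 1386 in alpha'/beta'-like cells, Con 521 CPM in alpha/beta against 311 in alpha'/beta'-like cells and Sema1a 600.1 CPM in alpha/beta against 1170.2 in alpha'/beta'-like cells. brp had a log2 fold change of 0.50 (SE 0.063), CanA-14F 0.60 (SE 0.074), shot 0.56 (SE 0.082) and sgg -0.35 (SE 0.074). The peptide receptor genes Dh44-R1 (2.33, SE 0.34) and Lgr3 (1.53, SE 0.28) were higher.

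Of 61 nuclear genes of the respiratory chain that passed the filter, 60 passed it in the members alone. Of the 61, 50 were called lower and 0 higher, where 13.3% of all features were called lower. Their median log2 fold change was -0.47 against -0.031 over all features. ATPsynC, of the ATP synthase ring, averaged 1088 ± 170 CPM in alpha/beta members against 1614 ± 297 CPM in alpha'/beta'-like cells, COX6B, of cytochrome oxidase, 602 CPM in alpha/beta against 1020 in alpha'/beta'-like cells and ATPsynbeta 621 CPM in alpha/beta against 875 in alpha'/beta'-like cells. The 13 mitochondrially encoded genes had 10 genes called higher and 0 lower, where 12.8% of all features were called higher, with a median of 0.41. Against gamma-like cells, 1 of 61 nuclear respiratory genes was called lower, where 7.36% of all features were, with a median of -0.086. The small heat shock genes Hsp26 (4453 CPM in alpha/beta against 1861 in alpha'/beta'-like cells) and Hsp23 (1586 CPM in alpha/beta against 378 in alpha'/beta'-like cells) were higher in alpha/beta members.

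**Figure D3:**
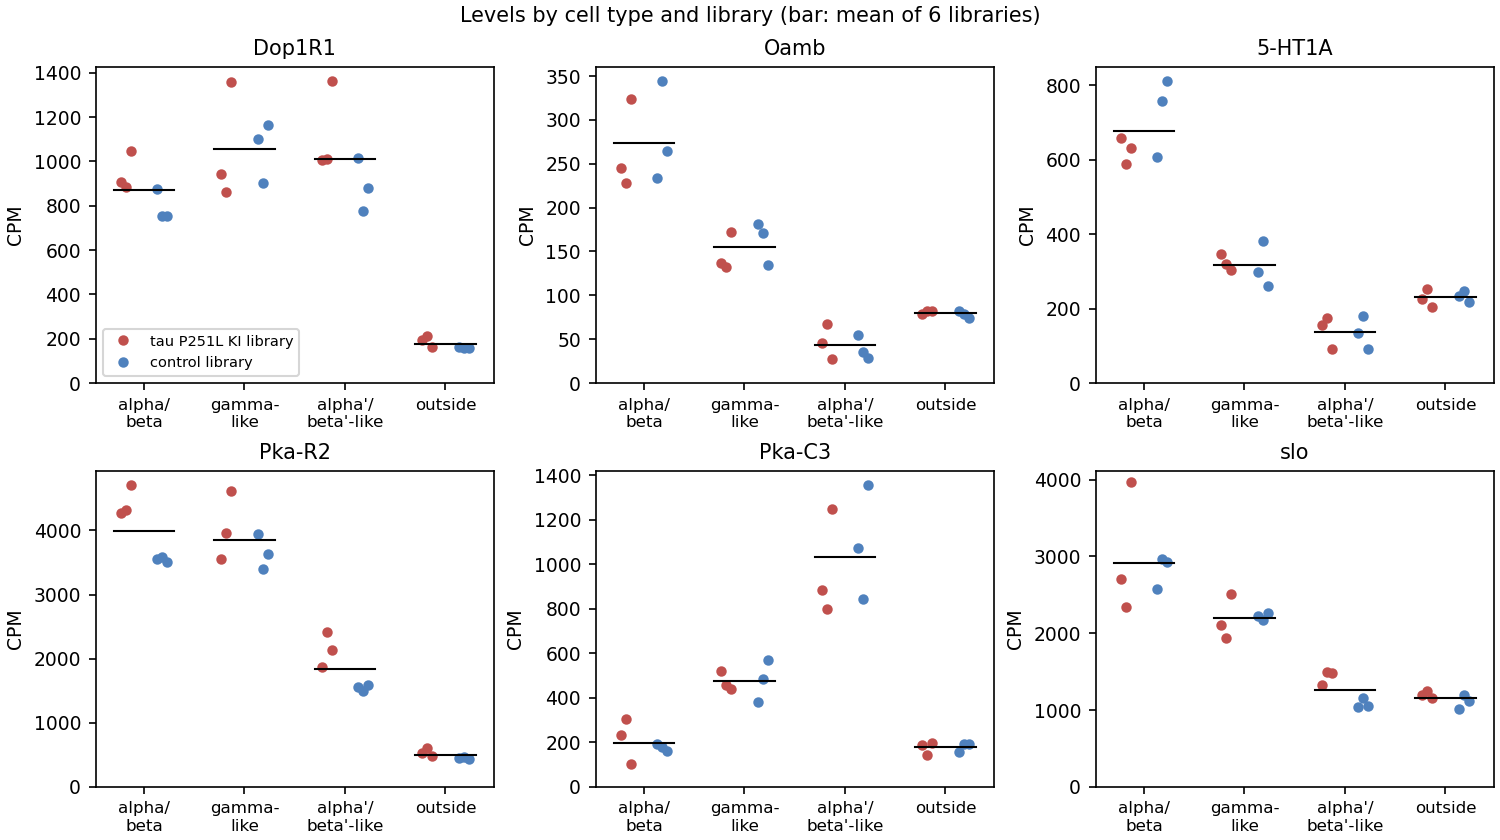
CPM without TMM scaling of 6 genes in alpha/beta members, gamma-like cells, alpha'/beta'-like cells and cells outside the Kenyon gate; each point is 1 library, red for tau P251L KI and blue for control, and the bar is the mean of 6 libraries. Oamb and 5-HT1A were highest in alpha/beta members, Pka-C3 was highest in alpha'/beta'-like cells, and Dop1R1 and Pka-R2 were low outside the gate.

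Against the 92173 kept barcodes outside the Kenyon gate, alpha/beta members had more RNA of cAMP and memory genes and of the dopamine receptor Dop1R1, and less of the transmitter genes VGlut and Gad1. Of 7922 features, 3065 were called (38.7%), 1141 higher (14.4%) and 1924 lower (24.3%), and the median log2 fold change of all features was -0.13. The largest increases were CG11835 (6.27), sals (5.85), the RNA-binding gene bru2 (5.61), CG34402 (5.16), GstD11 (5.15), SP1173 (5.04), Hr51 (4.76) and lbm (4.71) on the log2 scale. CG11835 was a leading gene of the clusters that held 61 and 57 members. Over all cells of these clusters it had 276 and 317 CPM, against 17.7 and 25.2 CPM in the other Kenyon-gated cells. GstD11 was a leading gene of both Imp clusters and CG34402 of 1 of them. SP1173 and lbm were among the leading genes of at least 1 crb cluster. Hr51, a nuclear receptor needed for mushroom body axons, had 122, 158 and 166 CPM in alpha/beta members, against 3.99, 4.89 and 7.19 CPM in cells outside the gate. bru2 had 198, 249.8 and 387 CPM in alpha/beta members, against 3.15, 4.98 and 9.06 CPM in cells outside the gate. In both genes the alpha/beta libraries stood above all others.

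Of 20 cAMP and memory genes that passed, 12 were called higher, where 14.4% of all features were. In the members alone 19 of the 20 passed, so no count of lower calls is given. Pka-R2 averaged 4177 ± 695 CPM in alpha/beta members against 483 ± 94.2 CPM in cells outside the gate, and mub, a KH-domain RNA-binding gene, 9226 ± 1351 CPM in alpha/beta members against 1643 ± 322 CPM in cells outside the gate. 14-3-3zeta, the leonardo learning gene, averaged 8627 ± 1617 CPM in alpha/beta members against 2539 ± 275 CPM in cells outside the gate, and Appl 4567 CPM in alpha/beta against 1864 in outside cells. orb2, a CPEB translation regulator of long-term memory, was lower at 475 CPM in alpha/beta against 786 in outside cells. Dop1R1, the dopamine receptor that couples to cAMP in learning, had 763, 901 and 1103 CPM in alpha/beta members, against 141, 158 and 228 CPM in cells outside the gate. Octbeta1R was higher at 816 CPM in alpha/beta against 229.8 in outside cells, while Octbeta2R (76.2 CPM in alpha/beta against 563 in outside cells) and 5-HT2A (33.0 CPM in alpha/beta against 131 in outside cells) were lower.

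Of 12 genes of other transmitter identities, 4 passed the filter in the members alone, as did 7 of 23 neuropeptide and receptor genes. The others could enter this comparison only through the outside cells, so no count of calls is given for these lists. VGlut averaged 62.0 ± 73.4 CPM in alpha/beta members against 583 ± 204 CPM in cells outside the gate and Gad1 82.7 ± 65.8 CPM in alpha/beta members against 562 ± 79.4 CPM in cells outside the gate. The largest decreases were in genes that entered through the outside cells alone, and they are given as levels. Pdf, the clock neuron peptide, averaged 1.48 CPM in alpha/beta against 218 in outside cells, the neuropeptide gene NPF 1.14 CPM in alpha/beta against 51.7 in outside cells, Orcokinin 1.35 CPM in alpha/beta against 126 in outside cells, the myosuppressin gene Ms 3.26 CPM in alpha/beta against 71.9 in outside cells, CG14274 5.22 CPM in alpha/beta against 91.2 in outside cells and the vesicular monoamine transporter Vmat 11.1 CPM in alpha/beta against 192 in outside cells. ITP, an ion transport peptide, had 1.98, 3.73 and 12.9 CPM in alpha/beta members, against 2.96, 5.83 and 375 CPM in cells outside the gate, and CG34220 had 0, 3.12 and 4.94 CPM in alpha/beta members, against 0.843, 1.68 and 511 CPM in cells outside the gate. Both ranges overlapped, and the highest outside library held most of the summed level. Leaving out control replicate 3 ended the call of CG34220 (log2 fold change -0.46, edgeR adjusted p = 0.644), and control libraries alone that of ITP (-0.56, edgeR adjusted p = 0.684). The glial gene Eaat1 was lower at 38.2 CPM in alpha/beta against 213 in outside cells, and repo, which also entered through the outside cells alone, was at 1.02 CPM in alpha/beta against 6.64 in outside cells. Pxn, a hemocyte marker, was higher at 146 CPM in alpha/beta against 63.3 in outside cells, while He was at 0 UMIs in the members.

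For acetylcholine, the transporter gene ChT was higher at 199.9 CPM in alpha/beta against 105 in outside cells, and the synthesis gene ChAT (171 CPM in alpha/beta against 309 in outside cells) and Ace (171 CPM in alpha/beta against 755 in outside cells) were lower. Among nicotinic subunits nAChRalpha5 was higher (2033 CPM in alpha/beta against 1418 in outside cells), and nAChRalpha7 (266 CPM in alpha/beta against 896 in outside cells) and nAChRalpha3 (43.1 CPM in alpha/beta against 286 in outside cells) were lower. Rdl averaged 5105 CPM in alpha/beta against 2621 in outside cells, and the ionotropic glutamate receptor genes GluRIA 638 CPM in alpha/beta against 219 in outside cells and GluRIB 1011 CPM in alpha/beta against 425 in outside cells. These 3 were the GABA and glutamate receptor genes called higher, where 14.4% of all features were. Of the 14 tested, 11 passed the filter in the members alone, so no count of lower calls is given. Among channels, Elk (299 CPM in alpha/beta against 44.3 in outside cells) and slo (3038 CPM in alpha/beta against 1125 in outside cells) were higher. Hk, the beta subunit of Shaker channels (396 CPM in alpha/beta against 1067 in outside cells), qvr (711 CPM in alpha/beta against 1429.5 in outside cells), Ih (911 CPM in alpha/beta against 1630.2 in outside cells) and Ca-alpha1T (611 CPM in alpha/beta against 1206 in outside cells) were lower. Ca-alpha1T was thus higher in alpha/beta members than in gamma-like cells and lower than outside the gate.

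Among identity factors, Hr38 (3292 CPM in alpha/beta against 1065 in outside cells) and pros (19572 CPM in alpha/beta against 8717 in outside cells) were higher and ct, a homeodomain gene (214 CPM in alpha/beta against 1348 in outside cells), lower. mamo averaged 2541 CPM in alpha/beta members against 1375 CPM in outside cells and was higher in 5 of 6 libraries, but its level followed the cluster. In plain CPM it was 270 in the 869 members of crb clusters and 8476 in the 268 members of Imp clusters, against 1181 to 1692 over the libraries of outside cells. The cell adhesion gene Dscam1 (294 CPM in alpha/beta against 146 in outside cells), the GTPase gene Rac1 (137 CPM in alpha/beta against 77.9 in outside cells), the microtubule genes shot (548 CPM in alpha/beta against 320.1 in outside cells) and stai (1603 CPM in alpha/beta against 848 in outside cells) and the active zone gene Rim (2128 CPM in alpha/beta against 1119 in outside cells) were higher. N-cadherin, CadN (237 CPM in alpha/beta against 535 in outside cells), sif, a Rac exchange factor (564 CPM in alpha/beta against 1251 in outside cells), and Snap25, of the release machinery (827 CPM in alpha/beta against 1699 in outside cells), were lower. Of 18 tau kinase and phosphatase genes, 10 were called higher and 2 lower, where 14.4% of all features were called higher and 24.3% lower. The higher ones included sgg (838 CPM in alpha/beta against 691 in outside cells) and CanA-14F (1316 CPM in alpha/beta against 787 in outside cells). The 2 lower ones included mnb, the DYRK1A kinase (180.1 CPM in alpha/beta against 265 in outside cells).

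Between the genotypes, 3 genes were called in alpha/beta members, and all 3 were lower in tau P251L KI: CG6912, asRNA:CR45600 and mthl8. These are 0.0683% of 4391 features tested with edgeR, where 367 features had an unadjusted p under 0.05 and DESeq2 called 9. CG6912 (FBgn0038290, chromosome arm 3R) had 0, 1.24 and 0 CPM in the tau P251L KI libraries, against 35.9, 36.4 and 43.4 CPM in the control libraries. That was 1 UMI in all against 57, a control to tau P251L KI ratio of 94.5 with an exact 95% counting interval of 16.3 to 3799 (edgeR adjusted p = 0.00637). asRNA:CR45600 (FBgn0267160, chromosome arm 3R) had 0, 0 and 3.71 CPM in the tau P251L KI libraries, against 86.2, 39.3 and 82.1 CPM in the control libraries, or 1 UMI against 82, a ratio of 136 (23.7 to 5437, edgeR adjusted p = 0.00697). It is annotated antisense to and overlapping CG6912, so without stated strand counting the reads of the pair cannot be told apart. mthl8, a methuselah-like receptor gene on chromosome arm 3L, had 0, 0 and 0 CPM in the tau P251L KI libraries, against 25.1, 25.9 and 43.4 CPM in the control libraries, or 0 UMIs against 43. It was at least 23.8-fold lower when 3 counts over the knock-in group are taken as the limit (edgeR adjusted p = 0.015). In all 3 genes each knock-in library lay below each control library.

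With same-numbered libraries as a replicate block, 9 features were called in place of 3: the same 3 genes, and CLIP-190, Idgf6, CG2233, fon, mt:ATPase8 and the insertion feature FBti0063565. The insertion had 60, 133 and 18.6 CPM in the tau P251L KI libraries, against 0, 10.5 and 4.83 CPM in the control libraries, without overlap. CLIP-190 (chromosome arm 2L), a microtubule plus-end binding protein, had 431, 353 and 197 CPM in the tau P251L KI libraries, against 1009, 795 and 825 CPM in the control libraries. The groups did not overlap, the log2 fold change was -1.39 (SE 0.25), and the adjusted p without the block was 0.125. Among genes not called, CG32368 (chromosome arm 3L) had 6.75, 7.45 and 3.71 CPM in the tau P251L KI libraries, against 25.1, 34.5 and 29.0 CPM in the control libraries (edgeR adjusted p = 0.125). In the other direction, myo (chromosome 4), the TGF-beta ligand myoglianin, had 48.0, 47.2 and 59.4 CPM in the tau P251L KI libraries, against 10.8, 18.2 and 9.65 CPM in the control libraries, a log2 fold change of 1.74 (SE 0.35, edgeR adjusted p = 0.142). pre-lola-G (chromosome arm 2R), annotated within the lola gene so that its reads may be shared with lola, had 25.5, 36.0 and 37.1 CPM in the tau P251L KI libraries, against 0, 4.79 and 0 CPM in the control libraries (edgeR adjusted p = 0.125). In these 4 genes the groups did not overlap, as in 698 of all features (15.9%), of which 293 were higher (6.67%) and 405 lower (9.22%) in tau P251L KI.

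**Figure D4:**
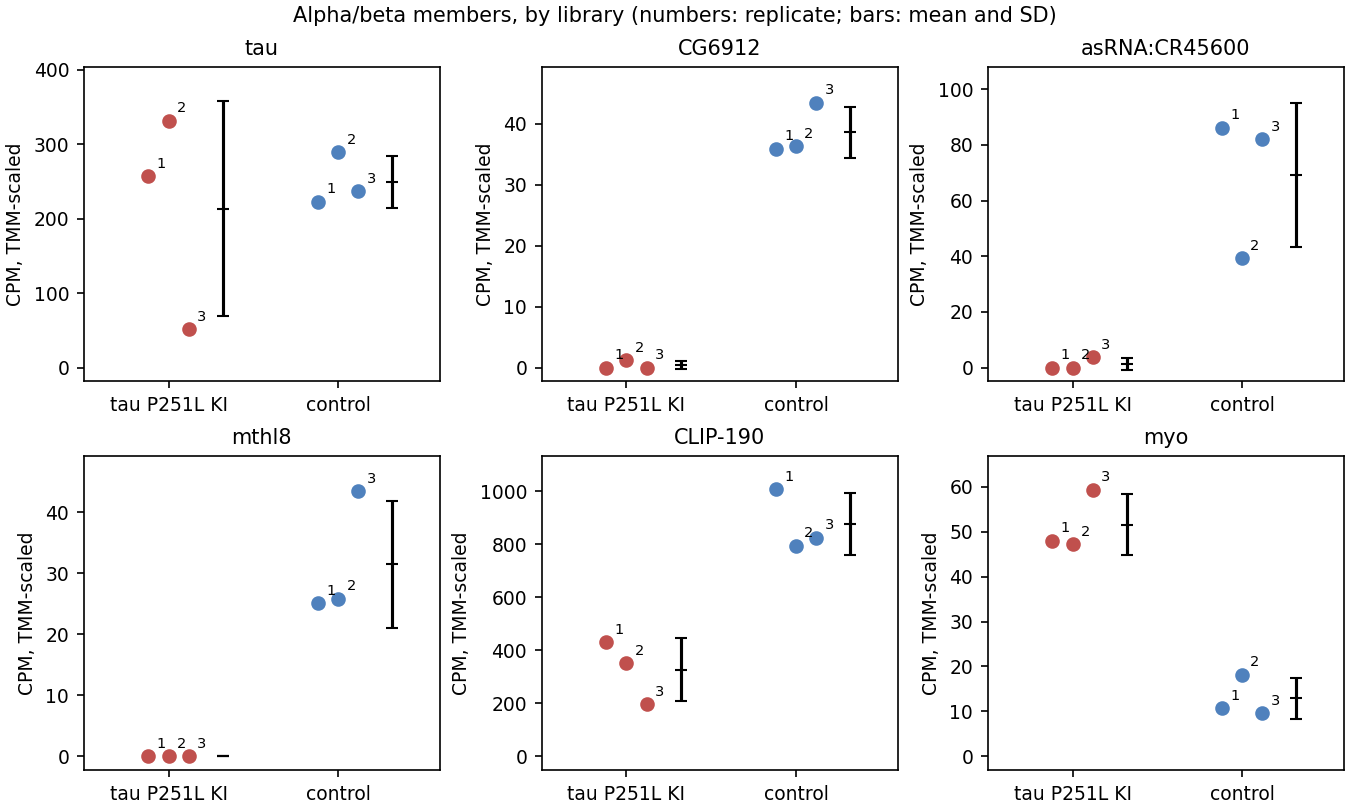
TMM-scaled CPM of 6 genes in alpha/beta members, with 1 point per library (replicate number beside it), tau P251L KI left and control right, and the mean and SD of 3 libraries as a bar. The 3 called genes were at or near 0 in tau P251L KI, CLIP-190 was lower and myo higher in all 3 knock-in libraries, and tau was low in knock-in replicate 3.

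Without control replicate 1, control replicate 2 or knock-in replicate 2 edgeR gave 0 calls, with 258, 225 and 170 features at an unadjusted p under 0.05. Without control replicate 3 there were 2 calls, both among the 3 called genes. Without knock-in replicate 1 there were also 2, but both were higher and 0 of the 3 genes were called. Without knock-in replicate 3 there were 19, which held all 3 genes. Among members in crb clusters, edgeR called 0 of 3329 features, with 274 at an unadjusted p under 0.05. Of the genes called under the block, Idgf6, a chitinase-like growth factor, fon, a clotting factor, and CG2233 were lower in tau P251L KI, and the sums of fat body markers are given beside them. Idgf6 had 12, 31.0 and 0 CPM in the tau P251L KI libraries, against 71.8, 135 and 57.9 CPM in the control libraries. fon had 8.25, 16.1 and 0 CPM in the tau P251L KI libraries, against 61.0, 75.6 and 24.1 CPM in the control libraries, and CG2233 had 12.8, 32.3 and 0 CPM in the tau P251L KI libraries, against 126, 176 and 24.1 CPM in the control libraries. Idgf6 and fon did not overlap between the groups, and CG2233 did. The 6 fat body markers summed to 503.6, 636 and 7.44 CPM in tau P251L KI members, against 887, 2008 and 501 CPM in control members, with Fbp1 and Lsp2 at 0 and all 4 tested markers negative (median log2 fold change -1.23). In barcodes of fewer than 100 UMIs, which hold free RNA, the sums were 518, 1122 and 142 CPM in tau P251L KI, against 23959, 3937 and 5543 CPM in control libraries. The 6 glia markers summed to 291, 608 and 193 CPM in tau P251L KI members, against 126, 268 and 231 CPM in control members, and the 5 hemocyte markers, with He at 0, to 102, 79.8 and 130.2 CPM against 211, 156 and 189 CPM. The part of RNA from other cells in the genotype values was not tested.

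Of 421 genes of the 26 lists tested between the genotypes, 0 were called in edgeR and 0 in DESeq2, and 70 had an unadjusted p under 0.05. The lists are given by counts and medians beside the all-feature median of -0.013. Of 92 cytosolic ribosomal protein genes, 82 passed the filter and 74 had a negative log2 fold change, with a median of -0.32. In 37 of them every tau P251L KI library was below every control library, where 9.22% of all features were apart in that direction. RpL36 had 1609.8, 1322 and 1948 CPM in the tau P251L KI libraries, against 1820.3, 1615 and 1719 CPM in the control libraries, and RpL15 had 1308, 1098 and 1673 CPM in the tau P251L KI libraries, against 1652, 1304 and 1463 CPM in the control libraries. The groups overlapped in both genes, and the log2 fold changes were small (-0.081, SE 0.17 and -0.12, SE 0.19) and turned positive without knock-in replicate 2 (0.072 and 0.039). Without that library the list's median was -0.21.

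Nuclear respiratory chain genes lay the same way, 57 of 60 negative with a median of -0.28, and 11 were apart in that direction (9.22% of all features were). ATPsynC had 953, 837 and 1046 CPM in the tau P251L KI libraries, against 1307, 1163 and 961 CPM in the control libraries, and ATPsynbeta had 570.1, 508 and 512 CPM in the tau P251L KI libraries, against 599.6, 627 and 753 CPM in the control libraries. The groups overlapped in ATPsynC and not in ATPsynbeta. Of 31 proteasome subunit genes 26 were negative, with a median of -0.33. Without knock-in replicate 2 the medians were -0.16 for the respiratory genes and -0.088 for the proteasome. Mitochondrially encoded genes lay the other way, 12 of 13 positive with a median of 0.62, and 6 were apart, where 6.67% of all features were. mt:CoI had 10664, 15370 and 10206 CPM in the tau P251L KI libraries, against 5777, 7280.5 and 8245 CPM in the control libraries, and mt:CoII had 10814, 8921 and 8637 CPM in the tau P251L KI libraries, against 5335, 7567 and 7762 CPM in the control libraries. Both were higher in every knock-in library than in any control library, and neither was called. mt:ATPase8, which overlaps mt:ATPase6 on the same transcript, had 55.5, 299 and 141 CPM in the tau P251L KI libraries, against 14.4, 47.9 and 43.4 CPM in the control libraries. The mitochondrial genes also entered the filter on barcodes, which caps them at 20% of UMIs.

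Most neuronal lists had small positive medians. The medians were 0.10 for 19 vesicle release genes, 0.15 for 17 tau and microtubule genes, 0.06 for 19 cAMP and memory genes, 0.18 for 13 monoamine receptors and 0.075 for 18 tau kinases and phosphatases. futsch, the MAP1B homologue, had 1799, 1915 and 1491 CPM in the tau P251L KI libraries, against 1350, 1698 and 1617 CPM in the control libraries, and the groups overlapped. The release genes cpx and unc-13 had log2 fold changes of 0.17 (SE 0.15) and 0.43 (SE 0.17), neither called. Medians were larger for axon guidance and adhesion (0.22, 25 of 28 positive), GABA and glutamate receptors (0.26, 9 of 11 positive) and acetylcholine synthesis and transport (0.29, 4 of 4 positive). Without knock-in replicate 2 the medians were 0.14 for GABA and glutamate receptors, 0.18 for acetylcholine synthesis and transport, 0.069 for monoamine receptors and 0.098 for tau and microtubule genes. Without control replicate 1 the GABA and glutamate receptor median was 0.16, and the monoamine receptor median turned to -0.028 with the gate on thinned barcodes. The tau and microtubule median was 0.049 there.

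**Figure D5:**
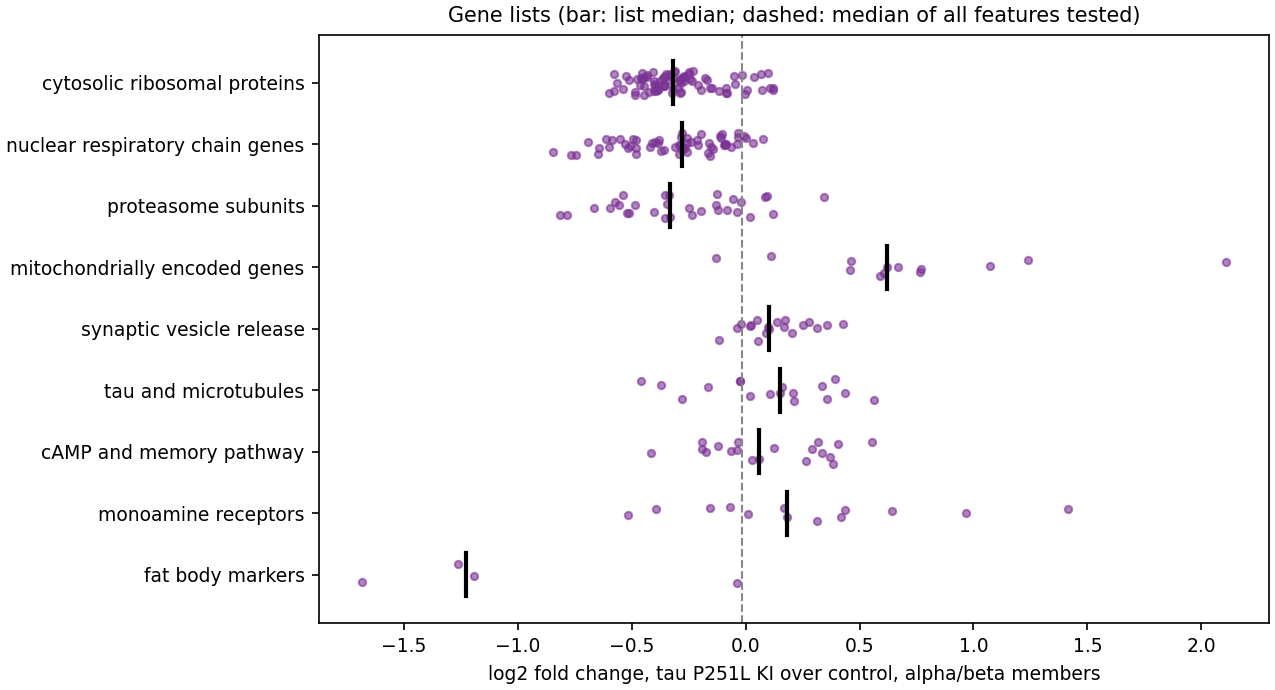
Log2 fold changes, tau P251L KI over control, of the genes of 9 lists in alpha/beta members, 1 point per gene; bars are list medians and the dashed line is the median of all features tested. Ribosomal, nuclear respiratory and proteasome genes lay mostly below 0 and mitochondrially encoded genes above it, with 0 genes of these lists called.

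Whether the genotypes differed by another amount in alpha/beta than in gamma-like cells was tested as an interaction. It called 0 of 5871 features (0%) in edgeR and 0 in DESeq2, with 203 at an unadjusted p under 0.05. The smallest p among uncalled genes belonged to MtnA, a metallothionein (log2 difference of effects -1.26, SE 0.23, edgeR adjusted p = 0.165), and CG31705 (-1.62, SE 0.32, edgeR adjusted p = 0.181). MtnA was at rank 2 in the cluster that held 19 members and 73 gamma-like cells. The median difference of effects was -0.023 for ribosomal proteins, -0.019 for nuclear respiratory genes and 0.14 for mitochondrially encoded genes, against 0.005 over all features.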

How the data were processed

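Brains of 3 tau P251L KI and 3 control libraries were measured by droplet single-cell RNA-seq. The deposited files hold raw UMI counts per gene and barcode, made with Cell Ranger 4 per the file headers, while the submitters' processing notes name Cell Ranger 6.0. The genome build and whether counting used strand are not given in the sources used here, and empty barcodes were included, so the filter was applied here. The members, gene lists and tests were chosen with earlier results of these data known.

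UMIs were summed per library and cell type. They were fitted with edgeR 4.0.16 (TMM, filterByExpr, quasi-likelihood test, Benjamini-Hochberg adjustment over all features, threshold 0.05) in R 4.3.3, after the 8 genes of the rule were removed. Genotypes were compared over 3 against 3 libraries, and cell types within libraries. DESeq2 1.42.0 was an alternative. The Kenyon-gated cells were clustered with scanpy 1.11.5 and leidenalg 0.10.2 (1500 variable genes, 20 principal components, 15 neighbours, resolution 0.5, finer resolution 1) without gate, mitochondrial, roX and insertion features. The fits were tested on simulated data. Per-library shares were compared by exact permutation tests.

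Replicate numbers are shared by the genotypes in the labels. The correlation of same-numbered libraries' deviations from their group means was 0.134, 0.23 and 0.175, each over 0.1. Knock-in replicate 1 correlated more with control replicate 2 (0.199), and the labels give no batch, so a pairing is not established. The main genotype fit and the share tests did not use it, and the blocked count is given beside the genotype result. Named genes were those called between genotypes, the uncalled ones with the smallest p, the 8 largest called changes in each direction among genes of at least 50 CPM in the higher type, and members of the lists. Idgf6, CG2233, fon, FBti0063565, mt:ATPase8 and Ddc were named after their values were seen. Chromosome arms come from the Ensembl BDGP6 annotation by identifier. No doublet caller was run; alternatives capped UMIs at 2 times the median or left out members with a VGlut, Gad1 or repo UMI. Of the members' barcodes, 21 also occurred among the kept barcodes of another library. Other alternatives left out each library, changed normalization, filters, depth and gate, or added covariates. Intervals and limits cover counting error only.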

Additional observations from a re-analysis of the deposited data

How the results depend on the processing

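Between the genotypes, 3 genes were called. DESeq2 called 9, the fit with the replicate block 9, the fit without the low-count filter 125, members thinned to 1000 UMIs 0, the stricter gate 1, and, chosen after seeing the data, a male RNA covariate 14 and members of clusters with crb among their 10 leading genes 0. Leaving out 1 library gave 0 to 19 calls, and 0 to 3 of the 3 genes were among them. Beyond the 6 features named beside it, the replicate block changed no call. Leaving out 1 library turned the difference in the median UMIs per alpha/beta member (-95.3 to 492), in the alpha/beta members with a roX UMI (percent) (-9.96 to 9.68 points), and the log2 fold changes of tau (-0.52 to 0.23), RpL36 (-0.20 to 0.072) and RpL15 (-0.26 to 0.039). Against gamma-like cells, where 689 features were called, control libraries alone gave 406, tau P251L KI libraries alone 281, the gates on thinned barcodes 45 and thinned cells 416. Against alpha'/beta'-like cells, the same settings gave 684, 683, 676 and 655 of 1119. Against cells outside the gate, tau P251L KI libraries alone gave 1912 and thinned cells 1999 of 3065. The interaction called 0, 8 without the filter, 3 with the gates on thinned barcodes and 0 to 1 without 1 library. With the gates on thinned barcodes the sign turned for CG2016 (0.84), mAChR-B (-0.086) and puc (0.043) against gamma-like cells, futsch (-0.042) against alpha'/beta'-like cells and Ddc (0.0021) against cells outside the gate. Fewer features were tested in the thinned settings. Of the 548 alpha/beta cells gated on thinned barcodes, 222 were gamma-like before thinning, so those types were mixed. The cause of the lost calls and turned signs was not tested. Over all settings, 49 of 56 genes followed against alpha'/beta'-like cells and 59 of 64 against cells outside the gate kept their sign and call, against 22 of 66 for gamma-like cells.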

Other observations

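Genes of basic metabolism also separated alpha/beta members from the cells outside the Kenyon gate. Of all features, 14.4% were called higher and 24.3% lower in alpha/beta members. Of 83 cytosolic ribosomal protein genes, 42 were called higher and 6 lower in alpha/beta members, with a median log2 fold change of 0.18 against -0.13 for all features. Of 64 nuclear respiratory chain genes, 49 were called lower and 0 higher, with a median of -0.41. In the members alone, 82 of the ribosomal and 60 of the respiratory genes passed the low-count filter, so the others entered through the outside cells. Of 13 mitochondrially encoded genes, 11 were called lower, with a median of -0.26. The filter on mitochondrial UMIs applied to both sides of this comparison. The part of free RNA in these counts was not tested.

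Activity and stress genes differed by gene. Against gamma-like cells, 1 of 14 such genes was called higher, where 5.71% of all features were. It was the zinc-finger gene sr, at 588 CPM in alpha/beta against 458 in gamma-like cells. In the members alone 13 of the 14 passed the filter, so no count of lower calls is given. sr lost its call in control libraries alone (log2 fold change 0.054, edgeR adjusted p = 0.883) and without tau P251L KI replicate 1 (0.27, edgeR adjusted p = 0.0719). It also lost its call with the gates on thinned barcodes (0.34, edgeR adjusted p = 0.0541). Against alpha'/beta'-like cells, 6 of 13 were called higher and 1 lower, where 12.8% of all features were called higher and 13.3% lower. Hsp26 was also higher than outside the gate, at 4376 CPM in alpha/beta against 1999 in outside cells.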
